A study of Mus musculus with 8 samples.

Results

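The T and NK cell genes are 34 genes whose products build, read out or follow antigen recognition by T cells and target recognition by natural killer (NK) cells. They were taken as every non-control probe of the array whose gene name is 1 of 34 listed symbols, which gave 46 probes out of 55661, or 34 of the 36075 gene names on the array. A test needed a signal well above background on 2 or more of the 8 arrays, which 32 of the 34 genes reached; Ctla4, an inhibitory receptor of activated T cells, and Klrk1, which encodes the activating receptor NKG2D, did not. RNA was measured on 8 single-colour arrays of bone marrow cells from mice aged 6 weeks on a mixed background (B6/CBA and others), with 2 arrays per group. The groups were Vav-Etv2 KSL cells, control KSL cells, Vav-Etv2 Gr cells and control Gr cells. KSL cells, the stem and progenitor fraction, are sorted as Kit and Sca-1 positive and negative for lineage markers, and Gr cells are the Gr-1 positive, Mac-1 positive fraction of granulocytes and their precursors. Vav-Etv2 mice carry a transgene of Etv2, an ETS family transcription factor, switched on by the Vav-iCre transgene, whose promoter is active throughout blood cells; the labels give the other mice only as control. Levels are log2 signals relative to each array's 75th percentile, so a level of 0 lies at that percentile, and differences are in log2 units.

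T cells recognise antigen through a receptor whose signal is carried by the CD3 chains and CD247. The kinases LCK and FYN phosphorylate these chains, ZAP70 then docks on them and phosphorylates the adaptor LAT, and CD28 and ICOS add costimulation. NK cells read activating and inhibitory receptors such as the KLR family and NKp46, depend on interleukin 15 through IL2RB, and kill with perforin and granzymes. Neither cell type is a target of the KSL or Gr sort, although progenitors with lymphoid potential transcribe some of these genes early. In bulk RNA, fewer cells of a type and less RNA per cell cannot be told apart.

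Some arrays stood apart from their labels or groups. Etv2 was at 0.19 and -1.24 in Vav-Etv2 KSL cells, against -4.37 and -4.73 in control KSL cells. In Gr cells it was at -0.55 and -1.29 in the Vav-Etv2 arrays, at -4.48 in Gr control 1, while the array labelled Gr control 2 read -0.54. The last level matches those of the Vav-Etv2 arrays and goes against that array's label, so the main counts and the named differences between Gr groups are given with and without it. In the pairs of Gr values below, the second control value is always that of the array labelled Gr control 2. Replicate 1 of both Gr groups had Xist at 0.35 (Vav-Etv2) and 0.27 (control), and replicate 2 of both had it at -6.82 (Vav-Etv2) and -7.10 (labelled control), with Ddx3y high in replicate 2 only. All KSL arrays had Xist between 2.12 and 2.69 and Ddx3y at -6.03 or below, so none had the pattern of Gr replicate 2. The array KSL Vav-Etv2 1 had a summed linear level of 6 endothelial markers of 39.7, against 3.41 in KSL Vav-Etv2 2 and 1.94 and 1.91 in control KSL cells. Ly6a, which encodes the Sca-1 antigen of the KSL sort, stood between 2.26 and 3.65 in KSL arrays and between 4.48 and 6.33 in Gr arrays, whereas Kit stood between 3.45 and 5.15 in KSL arrays and between 1.42 and 2.04 in Gr arrays.

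The promoters of 4 members are shown as examples of genes with the main patterns below, and because Etv2 belongs to the ETS family, whose members bind sites around the letters GGAA. Lck and Lat were among the members with the largest excess in KSL over Gr cells, and Klrb1a and Klrb1c read lower in Vav-Etv2 than in control arrays of both populations. The sequences are RefSeq promoters on build GRCm38.p6, 250 bases before to 50 after a transcript start, all on the minus strand and printed 5′ to 3′ along the gene. Lck has an entry for each of its transcript starts, at chr4:129573592-129573891 (the upstream one) and chr4:129558323-129558622. The others lie at chr7:126369519-126369818 (Lat), chr6:128622885-128623184 (Klrb1a) and chr6:128788592-128788891 (Klrb1c). Capitals mark AGGAAG on either strand, which on the opposite strand reads CTTCCT.
Lck, upstream start: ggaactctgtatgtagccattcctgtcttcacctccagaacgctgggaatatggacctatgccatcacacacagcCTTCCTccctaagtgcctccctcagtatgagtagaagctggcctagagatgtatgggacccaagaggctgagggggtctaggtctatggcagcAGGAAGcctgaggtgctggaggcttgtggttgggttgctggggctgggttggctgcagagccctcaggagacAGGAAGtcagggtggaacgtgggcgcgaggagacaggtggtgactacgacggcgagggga
Lck, downstream start: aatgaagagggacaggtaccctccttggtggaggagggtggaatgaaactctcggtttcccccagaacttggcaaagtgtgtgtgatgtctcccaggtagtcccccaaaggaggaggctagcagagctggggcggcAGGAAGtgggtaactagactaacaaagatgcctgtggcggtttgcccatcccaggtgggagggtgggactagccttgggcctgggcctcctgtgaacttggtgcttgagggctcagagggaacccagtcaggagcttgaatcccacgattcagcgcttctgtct
Lat: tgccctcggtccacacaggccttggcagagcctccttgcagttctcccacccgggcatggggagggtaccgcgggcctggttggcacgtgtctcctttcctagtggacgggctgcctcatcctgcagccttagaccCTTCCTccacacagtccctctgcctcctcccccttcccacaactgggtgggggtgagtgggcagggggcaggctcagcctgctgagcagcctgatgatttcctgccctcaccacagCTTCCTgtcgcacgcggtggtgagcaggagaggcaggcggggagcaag
Klrb1a: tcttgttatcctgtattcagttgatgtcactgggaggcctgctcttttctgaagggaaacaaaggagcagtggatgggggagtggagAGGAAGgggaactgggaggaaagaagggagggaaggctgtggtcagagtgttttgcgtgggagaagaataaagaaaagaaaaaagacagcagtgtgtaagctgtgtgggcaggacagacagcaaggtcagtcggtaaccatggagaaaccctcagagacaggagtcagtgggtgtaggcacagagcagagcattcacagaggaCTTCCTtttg
Klrb1c: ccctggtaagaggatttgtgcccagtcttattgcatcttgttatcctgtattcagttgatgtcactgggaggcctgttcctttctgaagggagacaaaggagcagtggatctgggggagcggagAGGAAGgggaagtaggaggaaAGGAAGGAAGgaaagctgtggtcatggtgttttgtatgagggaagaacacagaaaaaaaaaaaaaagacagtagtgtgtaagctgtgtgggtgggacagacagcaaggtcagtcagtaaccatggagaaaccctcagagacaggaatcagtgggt
AGGAAG occurred 3 times and 1 time in the upstream and downstream Lck promoters, 2 times in Lat, 2 times in Klrb1a and 3 times in Klrb1c, where 2 of the matches overlap. Promoter entries were found for 25 of the 34 members, with 31 promoters in all, and 17 of the 31 held AGGAAG. Other members with the same patterns held none. They included Tcf7, Trat1 and Fyn, higher in KSL cells, and Cd3g and Cd8a, which read lower in Vav-Etv2 arrays of both populations. Over all 32851 mouse promoters in the table, AGGAAG was held by 35.4%. Another ETS-like core, CCGGAA, was found in 2 of the 31 member promoters and 14.9% of all promoters. The Runt core TGTGGT was found in 14 of the 31 and 16.8% of all promoters, and the T-box letters AGGTGT in 9 of the 31 and 13.7% of all promoters. A match is a run of letters in this window and says nothing about binding.

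The largest differences lay between the populations. In Vav-Etv2 mice 18 of the 32 tested members were higher in KSL than in Gr cells and 1, Cd3d, was lower (limma adjusted p under 0.05). Over all 23226 features 24.2% were called, 10.4% as higher and 13.8% as lower. In control mice 18 members were higher in KSL cells and 0 lower, where 34.7% of all features were called, 16.2% as higher and 18.5% as lower. These control counts and shares all include the array labelled Gr control 2. The median difference of the members was 1.79 in Vav-Etv2 and 1.86 in control mice, against medians of -0.10 and -0.13 over all features. Of the called members 17 were called, all as higher, in both genotypes. Over all features that share can be at most the 10.4% called as higher in Vav-Etv2 mice. All KSL arrays lay above all Gr arrays in both genotypes for 19 members (27.6% of all features). Trat1, Cd8a and Bcl11b were well above background on KSL arrays only. They thus passed the filter through the population in which they were counted as higher. Icos, Tcf7, Eomes and Ncr1 were well above background on 1 Gr array each, so they too needed KSL arrays to pass. Counts under a stricter filter are given at the end. All KSL samples lay on 1 row of the slide and all Gr samples on the other, so slide row and population cannot be told apart. Replicate 2 of each Gr group also differed from every KSL array in Xist and Ddx3y, and the part of this was not tested. The calls were spread unevenly over the roles, as the plot of KSL minus Gr differences shows.

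**Figure D1:**
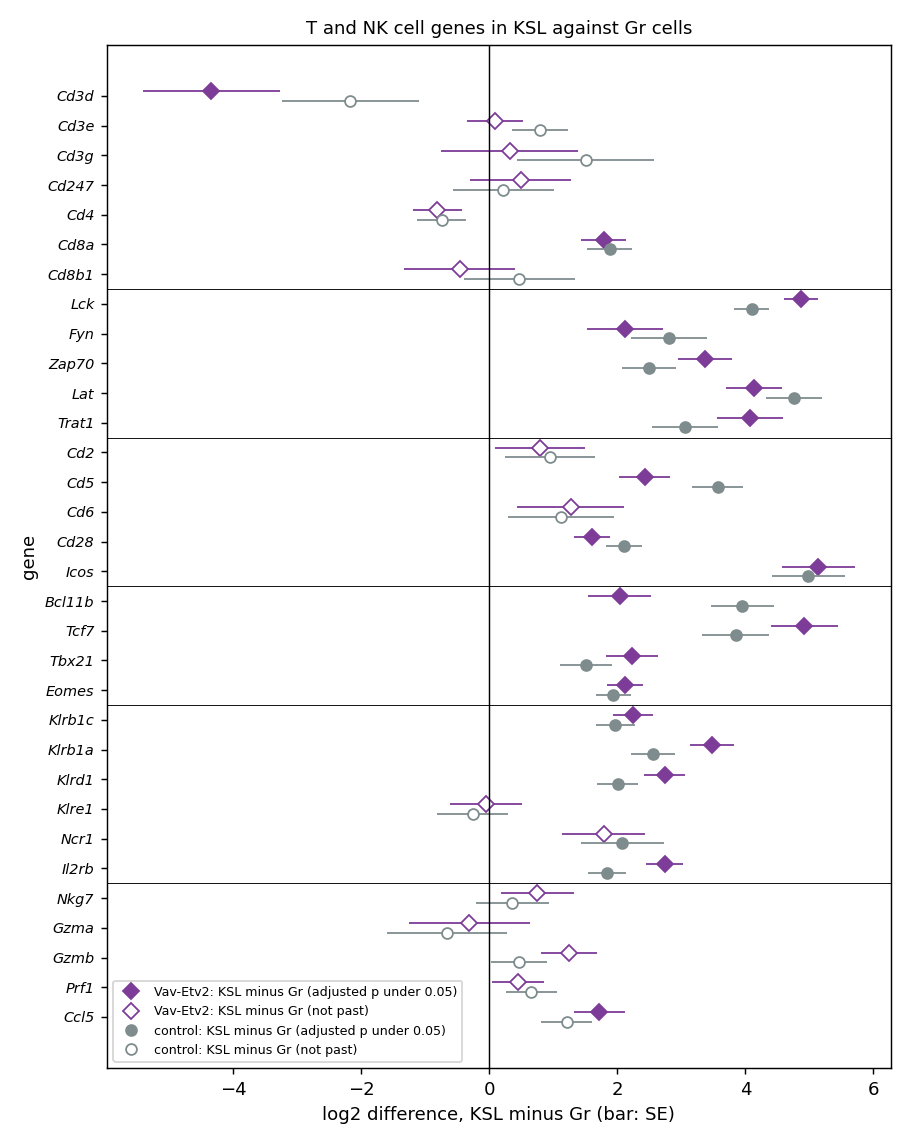
Log2 difference (KSL minus Gr, x axis) of the 32 tested T and NK cell genes (rows, grouped by role), with diamonds for Vav-Etv2 and circles for control mice, bars for the standard error and filled symbols for limma adjusted p under 0.05. All 5 proximal signalling genes and all 4 transcription factors are filled on the positive side in both genotypes, whereas of the cytotoxic effectors at the bottom only Ccl5 in Vav-Etv2 mice is filled.

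All 5 proximal signalling genes were higher in KSL than in Gr cells in both genotypes. Lck, the kinase that starts T cell receptor signalling (probe at chr4:129225614-129225673 of mm9), stood at 3.84 and 4.02 in Vav-Etv2 KSL cells, 3.54 and 3.67 in control KSL cells, -0.84 and -1.03 in Vav-Etv2 Gr cells, and -0.47 and -0.52 in control Gr cells. Every KSL array exceeded every Gr array by more than 4 log2 units, and the replicates of each group lay within 0.2 of each other. The difference was 4.87 in Vav-Etv2 mice, a 29.2-fold excess (SE 0.27, n = 2 and 2, limma adjusted p = 0.000981), and 4.10 in control mice, a 17.2-fold excess (SE 0.27, limma adjusted p = 0.000717). Lat, the adaptor that ZAP70 phosphorylates (chr7:133507719-133507778), stood at 2.68 and 2.05 in Vav-Etv2 KSL cells, 2.45 and 2.36 in control KSL cells, -1.41 and -2.12 in Vav-Etv2 Gr cells, and -2.82 and -1.89 in control Gr cells. The populations did not overlap, with differences of 4.13 in Vav-Etv2 (SE 0.44, limma adjusted p = 0.00268) and 4.76 in control mice (SE 0.44, limma adjusted p = 0.00143).

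Zap70 (chr1:36839542-36839601) stood at 0.91 and 1.07 in Vav-Etv2 KSL cells, 0.61 and 0.71 in control KSL cells, -1.80 and -2.96 in Vav-Etv2 Gr cells, and -1.69 and -1.96 in control Gr cells. Again the lowest KSL array was above the highest Gr array, by 3.37 on average in Vav-Etv2 (SE 0.42, limma adjusted p = 0.00383) and 2.49 in control mice (SE 0.42, limma adjusted p = 0.00684). Its second probe showed the same order of populations. Fyn, a kinase related to Lck that many cell types express (chr10:39284572-39284631), stood at 0.76 and 0.57 in Vav-Etv2 KSL cells, 0.16 and 0.37 in control KSL cells, -1.57 and -1.33 in Vav-Etv2 Gr cells, and -3.51 and -1.58 in control Gr cells. Gr control 1 was the low array of that last pair. The differences were 2.12 in Vav-Etv2 (SE 0.59, limma adjusted p = 0.0427) and 2.81 in control mice (SE 0.59, limma adjusted p = 0.0141). Trat1, an adaptor that associates with the receptor complex (chr16:48734961-48735020), stood at -1.97 and -2.54 in Vav-Etv2 KSL cells and -3.18 and -3.60 in control KSL cells, and no Gr array had it well above background. Its excess in KSL cells was at least 4.01-fold in Vav-Etv2 (limma adjusted p = 0.00429) and at least 2.00-fold in control mice (limma adjusted p = 0.00735).

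Here and below, "at least" folds set the brighter group's mean against the mean, over the arrays of the group in which the probe was not well above background, of the higher of the probe's own signal and the array's lowest well-above-background signal. Leaving out single arrays, which leaves fewer residual degrees of freedom, ended none of the calls of Lck and Lat. It ended the Zap70 call in control mice without KSL control 2 (limma adjusted p = 0.0539), the Trat1 call in control mice without KSL control 1 (0.0569), and the Fyn calls without either control KSL array (0.0715 and 0.0816 in control mice, 0.0796 each in Vav-Etv2 mice). The Fyn call in Vav-Etv2 mice was also lost without either Vav-Etv2 Gr array (0.169 and 0.0833) or either Vav-Etv2 KSL array (0.158 and 0.123).

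**Figure D2:**
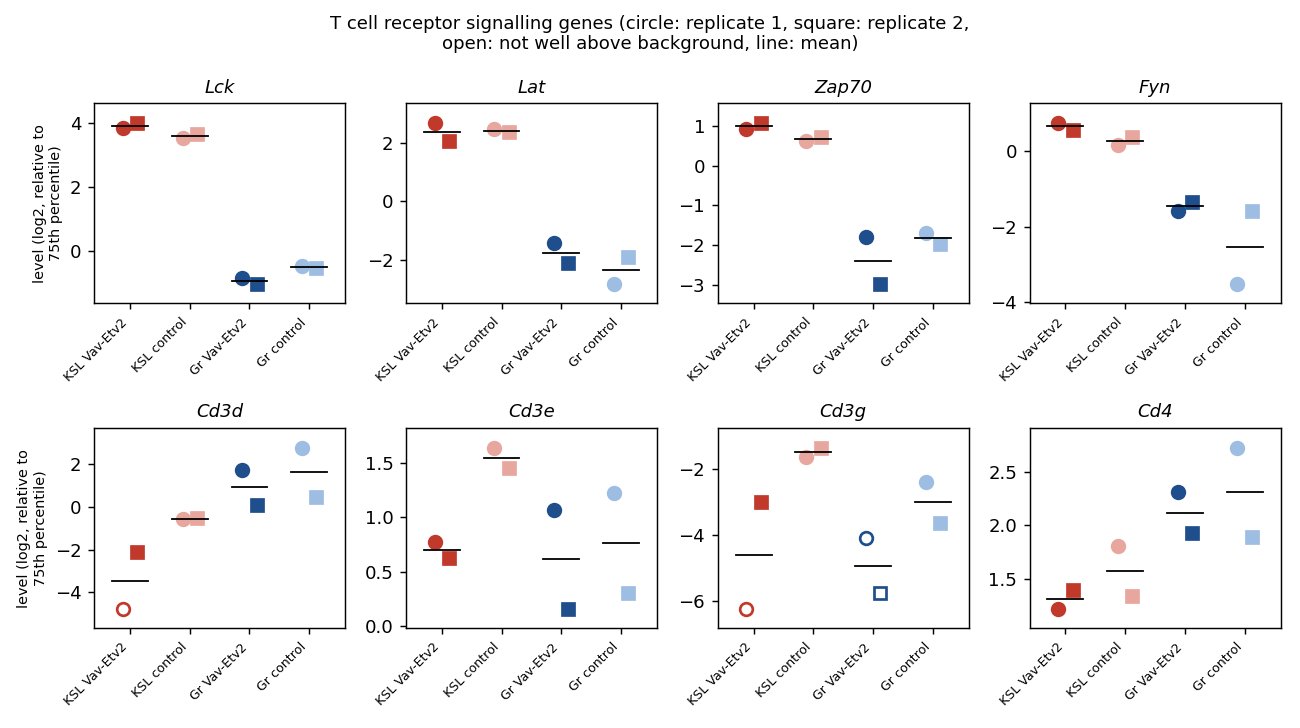
Level (log2, relative to the array's 75th percentile, y axis) of 4 proximal signalling genes and of Cd3d, Cd3e, Cd3g and Cd4 in the 4 groups (x axis), with circles for replicate 1, squares for replicate 2, open symbols for signals not well above background and lines for the mean of the 2 arrays. Lck, Lat, Zap70 and Fyn lie higher in all 4 KSL arrays than in all 4 Gr arrays, whereas Cd3d and Cd4 lie lower in KSL arrays.

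The receptor chains and co-receptors did not follow the kinases. Of the 7, only Cd8a was called higher in KSL cells, and Cd3d was called lower in Vav-Etv2 mice. Cd3d, a CD3 chain (chr9:44794171-44794402), stood at -4.76 and -2.13 in Vav-Etv2 KSL cells, the first not well above background, -0.58 and -0.55 in control KSL cells, 1.70 and 0.09 in Vav-Etv2 Gr cells, and 2.75 and 0.47 in control Gr cells. All Gr arrays were above all KSL arrays, and replicate 1 was the higher array of both Gr pairs. The KSL minus Gr difference was -4.34 in Vav-Etv2 mice (SE 1.07, limma adjusted p = 0.0293) and -2.17 in control mice (SE 1.07, limma adjusted p = 0.154). Without KSL Vav-Etv2 1 the Vav-Etv2 difference was -3.03 (0.128), without Gr Vav-Etv2 1 it was -3.54 (0.151), and without either control KSL array its limma adjusted p was 0.0559.

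Cd3g, the neighbouring CD3 gene (chr9:44777868-44777927), stood at -6.22 and -3.00 in Vav-Etv2 KSL cells, -1.64 and -1.36 in control KSL cells, -4.10 and -5.76 in Vav-Etv2 Gr cells, and -2.39 and -3.63 in control Gr cells. The first Vav-Etv2 KSL array and both Vav-Etv2 Gr arrays were not well above background, and the KSL and Gr arrays of Vav-Etv2 mice overlapped. In control mice both KSL arrays lay above both Gr arrays, by 1.51 on average (SE 1.07, limma adjusted p = 0.302). Cd8a, a chain of the co-receptor of cytotoxic T cells (chr6:71328911-71328970), stood at -3.93 and -4.34 in Vav-Etv2 KSL cells and -3.67 and -3.55 in control KSL cells, and neither the second Vav-Etv2 KSL array nor any Gr array had it well above background. Its excess in KSL cells was at least 1.09-fold in Vav-Etv2 (limma adjusted p = 0.0141) and at least 1.72-fold in control mice (limma adjusted p = 0.00973). Without a control KSL array the control call was lost (limma adjusted p = 0.0639 and 0.0714), as was the Vav-Etv2 call without Gr Vav-Etv2 1 (0.0606) or KSL Vav-Etv2 1 (0.0873).

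Cd3e, Cd247, Cd4 and Cd8b1 were not called in any comparison. Cd3e was well above background on all 8 arrays, between 0.63 and 1.64 in KSL cells and between 0.16 and 1.22 in Gr cells. In control mice its KSL arrays (1.64 and 1.45) lay above its Gr arrays (1.22 and 0.30), by 0.79 on average (limma adjusted p = 0.198). Cd8b1, the second CD8 chain, lay between -6.50 and -3.77 in KSL and between -5.47 and -4.04 in Gr arrays, where it was not well above background. Cd4 was read by 2 probes that disagreed. The one at chr6:124814711-124814770, which stood for the gene, lay between 1.22 and 1.81 in KSL arrays and between 1.89 and 2.73 in Gr arrays, and the one at chr6:124817706-124817765 lay at -4.08 or below on every array. The probes of Cd247 disagreed as well, since the probe not used for the gene (chr1:167786567-167787585) was higher in KSL cells by 2.28 in Vav-Etv2 (limma adjusted p = 0.0156) and 1.94 in control mice (limma adjusted p = 0.0204), against 0.49 and 0.22 for the other (limma adjusted p = 0.665 and 0.849).

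Among the accessory and costimulatory receptors, Icos, Cd5 and Cd28 were higher in KSL cells in both genotypes, and Cd2 and Cd6 were not called. Icos, the inducible costimulator (chr1:61057105-61057164), stood at -0.31 and 0.22 in Vav-Etv2 KSL cells, -0.53 and -0.51 in control KSL cells, -5.95 and -4.40 in Vav-Etv2 Gr cells, and -5.95 and -5.04 in control Gr cells. Of the Gr arrays, only Gr Vav-Etv2 2 had it well above background. The difference was 5.14 in Vav-Etv2 mice (SE 0.57, limma adjusted p = 0.00284), and the excess was at least 14.6-fold in control mice (limma adjusted p = 0.00232). Its second probe had the same order.

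Cd5, an inhibitory receptor of T cells and some B cells (chr19:10792701-10792760), stood at 0.37 and -0.05 in Vav-Etv2 KSL cells, 0.19 and 0.15 in control KSL cells, -2.03 and -2.51 in Vav-Etv2 Gr cells, and -3.88 and -2.93 in control Gr cells, the first not well above background. The KSL arrays were alike in both genotypes, and the Gr arrays were all lower, by 2.43 in Vav-Etv2 (SE 0.40, limma adjusted p = 0.0081) and 3.57 in control mice (SE 0.40, limma adjusted p = 0.0022). Cd28, the main costimulatory receptor (chr1:60830144-60830203), stood at 0.14 and 0.20 in Vav-Etv2 KSL cells, 0.25 and 0.25 in control KSL cells, -1.33 and -1.55 in Vav-Etv2 Gr cells, and -1.65 and -2.07 in control Gr cells. Its differences were 1.61 in Vav-Etv2 (SE 0.28, limma adjusted p = 0.0101) and 2.11 in control mice (SE 0.28, limma adjusted p = 0.00365). The Vav-Etv2 call was lost without KSL Vav-Etv2 1 for Cd5 (limma adjusted p = 0.0524) and for Cd28 (0.058), and without KSL Vav-Etv2 2 for Cd28 (0.0538). Cd2, an adhesion receptor, lay between -1.15 and 0.69 in KSL and between -1.76 and -0.27 in Gr arrays. Cd6, a receptor related to Cd5, lay between 1.56 and 2.03 in KSL and between -0.72 and 1.79 in Gr arrays, and Ctla4 lay at -4.82 or below on all 8 arrays.

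All 4 transcription factors were higher in KSL than in Gr cells in both genotypes. Tcf7, which encodes TCF-1 and acts from the first steps of T cell development (chr11:52066114-52066173), stood at -0.32 and -0.59 in Vav-Etv2 KSL cells, -0.64 and -0.48 in control KSL cells, -4.54 and -6.20 in Vav-Etv2 Gr cells, and -4.36 and -4.46 in control Gr cells. Of the Gr arrays, only the one labelled Gr control 2 had it well above background. The excess was at least 14.0-fold in Vav-Etv2 (limma adjusted p = 0.00268), and the difference was 3.85 in control mice (SE 0.52, limma adjusted p = 0.00379). Bcl11b, required for commitment to the T lineage (chr12:109153847-109153906), stood at -3.18 and -4.22 in Vav-Etv2 KSL cells, the second not well above background, and at -2.33 and -2.37 in control KSL cells, with no Gr array well above background. Its excess was at least 1.48-fold in Vav-Etv2 (limma adjusted p = 0.0274) and at least 4.11-fold in control mice (limma adjusted p = 0.00293).

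Tbx21, which encodes T-bet and drives effector programmes of T and NK cells (chr11:96959417-96959476), stood at -1.81 and -2.41 in Vav-Etv2 KSL cells, -1.91 and -1.37 in control KSL cells, -4.09 and -4.60 in Vav-Etv2 Gr cells, and -2.82 and -3.47 in control Gr cells. The Vav-Etv2 Gr arrays were the lowest and not well above background. The excess in KSL cells was at least 4.29-fold in Vav-Etv2 (limma adjusted p = 0.0108), and the difference was 1.51 in control mice (SE 0.40, limma adjusted p = 0.0296). Eomes, a T-box factor related to T-bet (chr9:118394425-118394484), stood at -2.48 and -2.35 in Vav-Etv2 KSL cells, -2.53 and -2.89 in control KSL cells, -4.50 and -4.59 in Vav-Etv2 Gr cells, and -4.66 and -4.65 in control Gr cells. Only the array labelled Gr control 2 had it well above background among the Gr arrays, and the populations did not overlap. The excess was at least 3.46-fold in Vav-Etv2 (limma adjusted p = 0.00437), and the difference was 1.94 in control mice (SE 0.28, limma adjusted p = 0.00426). Tbx21 had a control difference of 1.18 when the array labelled Gr control 2 was left out (limma adjusted p = 0.0857), and without KSL control 1 or KSL control 2 it was 1.78 (0.0855) and 1.23 (0.172). In Vav-Etv2 mice Tbx21 was lost without KSL Vav-Etv2 1 (0.0678), and Bcl11b without Gr Vav-Etv2 1 (0.104), Gr Vav-Etv2 2 (0.0725), KSL Vav-Etv2 1 (0.139) or either control KSL array (0.0585).

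The NK cell receptors showed the same order of populations for 5 of the 6 tested, with Klre1 as the exception. Klrb1a, a C-type lectin receptor of the NKR-P1 family (chr6:128568515-128568574), stood at -1.52 and -2.00 in Vav-Etv2 KSL cells, -1.0 and -0.88 in control KSL cells, -4.97 and -5.50 in Vav-Etv2 Gr cells, and -3.31 and -3.71 in control Gr cells. Within each population both Vav-Etv2 arrays lay below both control arrays. The excess in KSL over Gr cells was at least 5.66-fold in Vav-Etv2 (limma adjusted p = 0.00211), and the difference was 2.56 in control mice (SE 0.34, limma adjusted p = 0.00348). Klrb1c, which encodes NK1.1 (chr6:128729611-128729670), stood at -2.00 and -1.81 in Vav-Etv2 KSL cells, -1.35 and -1.26 in control KSL cells, -3.88 and -4.43 in Vav-Etv2 Gr cells, and -3.12 and -3.44 in control Gr cells. It had the same order of the 4 groups as Klrb1a, a near relative, and cross-hybridisation between them was not tested. The excess in KSL cells was at least 4.67-fold in Vav-Etv2 (limma adjusted p = 0.00507), and the difference was 1.97 in control mice (SE 0.31, limma adjusted p = 0.00577).

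Il2rb, the receptor chain shared by interleukins 2 and 15 (chr15:78311109-78311168), was well above background on all 8 arrays, at -0.38 and -0.73 in Vav-Etv2 KSL cells, -0.01 and 0.04 in control KSL cells, -3.28 and -3.32 in Vav-Etv2 Gr cells, and -1.65 and -2.01 in control Gr cells. The order of the groups was again that of Klrb1a, with no overlap between neighbours. KSL exceeded Gr cells by 2.74 in Vav-Etv2 (SE 0.29, limma adjusted p = 0.00265) and 1.84 in control mice (SE 0.29, limma adjusted p = 0.00563). Klrd1, which encodes CD94, the partner of the NKG2 receptors (chr6:129548612-129548671), stood at 0.22 and 0.73 in Vav-Etv2 KSL cells, -0.48 and -0.21 in control KSL cells, -2.06 and -2.47 in Vav-Etv2 Gr cells, and -2.40 and -2.31 in control Gr cells. Here the Vav-Etv2 KSL arrays were the highest, unlike for Klrb1a. The differences were 2.74 in Vav-Etv2 (SE 0.32, limma adjusted p = 0.00328) and 2.01 in control mice (SE 0.32, limma adjusted p = 0.0059).

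Ncr1, which encodes the NK receptor NKp46 (chr7:4296176-4296235), stood at -2.30 and -2.96 in Vav-Etv2 KSL cells, -2.69 and -2.97 in control KSL cells, -3.71 and -5.13 in Vav-Etv2 Gr cells, and -5.68 and -4.15 in control Gr cells. Only the array labelled Gr control 2 had it well above background in Gr cells. The excess was at least 2.97-fold in Vav-Etv2, not past the threshold (limma adjusted p = 0.0875), and the difference was 2.08 in control mice (SE 0.65, limma adjusted p = 0.0473). That call was lost without Gr control 1 (limma adjusted p = 0.215), KSL control 1 (0.178), KSL control 2 (0.143) or either Vav-Etv2 KSL array (0.0647). In control mice the calls of Klrb1c (0.0529) and Klrd1 (0.0561) were lost without KSL control 2, and that of Il2rb without either control KSL array (0.0501 and 0.053). Klre1, which encodes a receptor that pairs with KLRI chains, lay between -4.70 and -3.70 in KSL and between -4.98 and -2.65 in Gr arrays, and Klrk1 was at -4.17 or below on every array.

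The cytotoxic effectors did not separate the populations as the receptors did. Of the 5, Ccl5 was called in Vav-Etv2 mice and 0 were called in control mice, where the lowest limma adjusted p was 0.0562 and 1 had an unadjusted p under 0.05 (47.7% of all features). Ccl5, a chemokine made by activated T and NK cells (chr11:83339296-83339355), stood at 1.91 and 1.67 in Vav-Etv2 KSL cells, 2.91 and 2.81 in control KSL cells, 0.37 and -0.22 in Vav-Etv2 Gr cells, and 2.13 and 1.18 in control Gr cells. The control Gr arrays overlapped with the Vav-Etv2 KSL arrays. The KSL minus Gr difference was 1.72 in Vav-Etv2 (SE 0.40, limma adjusted p = 0.0249) and 1.21 in control mice (SE 0.40, limma adjusted p = 0.0562). The Vav-Etv2 call was lost without any 1 of the 4 Vav-Etv2 arrays (limma adjusted p = 0.122 and 0.0776 for KSL, 0.0553 and 0.0779 for Gr) and without either control KSL array (0.0571). Gzma, which encodes granzyme A (chr13:113884035-113884094), stood at -2.99 and 0.22 in Vav-Etv2 KSL cells, 0.11 and 0.51 in control KSL cells, -1.05 and -1.10 in Vav-Etv2 Gr cells, and 0.61 and 1.32 in control Gr cells. Only KSL Vav-Etv2 1 separated its pair, and the populations overlapped in Vav-Etv2 mice. Nkg7, which encodes a granule membrane protein, lay between 4.77 and 5.09 in KSL and between 3.51 and 5.41 in Gr arrays, with replicate 2 the higher of both Gr pairs. Gzmb, which encodes granzyme B, lay between -2.88 and -2.36 in KSL and between -4.44 and -2.70 in Gr arrays, and Prf1, which encodes perforin, between -0.69 and 0.00 in KSL and between -1.58 and -0.68 in Gr arrays.

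**Figure D3:**
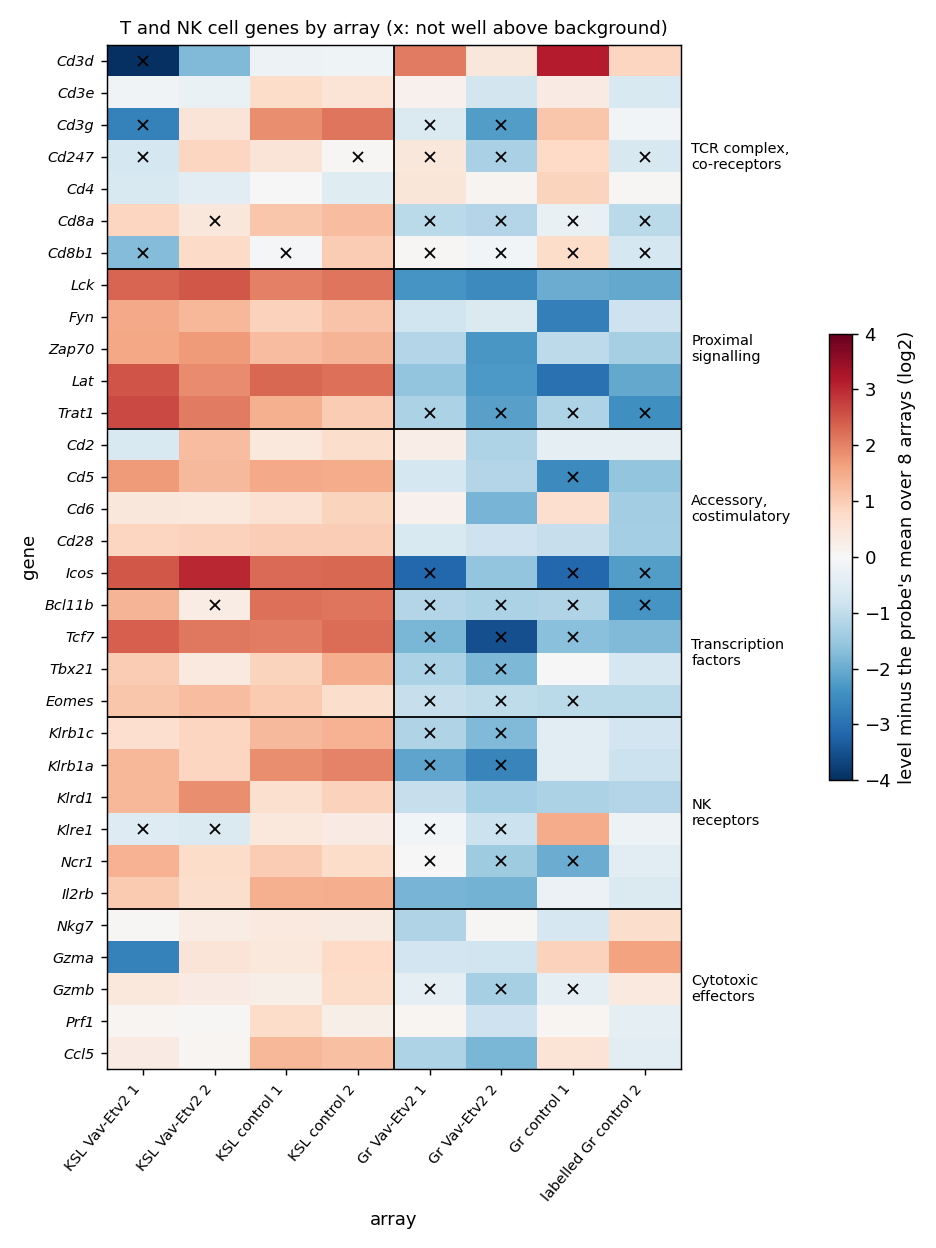
Level of the 32 tested T and NK cell genes (rows, grouped by role) on each of the 8 arrays (columns), as the log2 difference from the probe's own mean over the arrays, with the colour scale ending at -4 and 4 and a cross where the signal was not well above background. The proximal signalling rows are red in all KSL arrays and blue in all Gr arrays, and the Cd3d row runs the other way.

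No member was called between Vav-Etv2 and control cells. In KSL cells 0 of 32 passed the threshold (lowest limma adjusted p = 0.569), where 0.0172% of all features did, and 6 members had an unadjusted p under 0.05, where 7.43% of all features did. The differences were negative for 23 members (49.6% of all features) and positive for 9, with a median of -0.26 against 0.00 over all features. Both Vav-Etv2 KSL arrays lay below both controls for 14 members and above them for 7, where 25.4% and 26.1% of all features did. In Gr cells 0 of 32 passed (every limma adjusted p = 1.00), where 0.00861% of all features did, and 6 had an unadjusted p under 0.05, where 1.27% did. Here the differences were negative for 22 members (51.5% of all features) and positive for 10, with a median of -0.44 against -0.01 over all features, and the groups did not overlap for 11 members lower and 4 higher, where 5.78% and 5.85% of all features were. Without the array labelled Gr control 2, 0 members passed (0% of all features) and 8 had an unadjusted p under 0.05 (8.33%). The differences were then negative for 23 members (55.2% of all features) and positive for 9, with a median of -0.61 against -0.09 over all features. Both Vav-Etv2 Gr arrays lay below Gr control 1 for 20 members (37.1% of all features) and above it for 6 (28.9%). The test of the difference between the KSL and Gr effects called 0 members as well (0.00431% of all features were called), with 1 unadjusted p under 0.05, that of Bcl11b, where 3.9% of all features had one. The largest differences of the effects, KSL minus Gr, were -2.17 for Cd3d, -1.91 for Bcl11b, -1.18 for Cd3g (0.42 without KSL Vav-Etv2 1), -1.14 for Cd5 and 1.07 for Tcf7, each with a limma adjusted p of 1.00. Bcl11b on all Gr arrays, and Cd3g and Tcf7 on the Vav-Etv2 Gr arrays, were not well above background, so these 3 values rest on signals within background. This test is also that of a difference between genotypes in the KSL minus Gr gap, so none of the gaps above was shown to differ between Vav-Etv2 and control mice.

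In Gr cells the values of NK genes and effectors went in both directions, and no difference passed the test. The values of each array are those given above. Il2rb differed by -1.47 (SE 0.29), Ccl5 by -1.58 (SE 0.40) and Gzma by -2.04 (SE 0.94), each with a limma adjusted p of 1.00. Klrb1a, Klrb1c, Tbx21 and Cd3g were not well above background in Vav-Etv2 Gr cells and have only a bound there, at least 1.68-fold, 1.80-fold, 2.10-fold and 2.38-fold lower (limma adjusted p = 1.00 each). For each of these 7 both Vav-Etv2 arrays lay below Gr control 1 and below the array labelled Gr control 2. Of the other NK genes, Klrd1 differed by 0.09 (SE 0.32), and Klre1 was at least 1.70-fold lower with overlapping arrays. Ncr1 and Eomes, measured at differences of 0.49 and 0.11, were well above background only on the array labelled Gr control 2. Cd5, at 1.13 (SE 0.40), and Fyn, at 1.09 (SE 0.59), were higher without overlap and with a limma adjusted p of 1.00, but Cd5 was not well above background on Gr control 1. By role, the differences were negative for 7 of 7 receptor chains with and without the array labelled Gr control 2. Cd8a and Cd8b1 were within background on all Gr arrays, however, and the probe not used for Cd247 differed by 0.18 over all arrays. The 5 cytotoxic effectors had 5 negative differences with that array and 4 without it, where Nkg7 turned to 0.09.

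When the array labelled Gr control 2 was left out, the Gr differences were -1.65 for Il2rb (limma adjusted p = 0.406), -2.05 for Ccl5 (0.400), -1.68 for Gzma (0.699) and 2.06 for Fyn (0.377). The bounds against Gr control 1 alone were at least 1.93-fold lower for Klrb1a (limma adjusted p = 0.429), 2.01-fold for Klrb1c (0.555), 2.62-fold for Tbx21 (0.523) and 3.65-fold for Cd3g (0.640). Cd5 was not well above background on that remaining control array and measured 1.60 higher (0.437). All 9 of these genes had both Vav-Etv2 arrays on the same side of both control arrays. Leaving out a control array therefore could not change their direction, and the kept direction is no test. The 2 replicate numbers of the Gr arrays differ in Xist and Ddx3y, so differences were also taken within each number. Il2rb differed by -1.64 and -1.31, Ccl5 by -1.76 and -1.40 and Gzma by -1.66 and -2.41 in replicates 1 and 2. Klrb1a, Klrb1c, Tbx21 and Cd3g were lower within both numbers, with Vav-Etv2 signals not well above background. For these genes and for Il2rb, Ccl5 and Gzma, that direction was likewise fixed by the order of the arrays. Of the 32 members 18 were lower in Vav-Etv2 within both numbers, or 56.2%, where 21.9% of all features were. Within replicate 1, which leaves out the array labelled Gr control 2, 22 members were lower, where 51.9% of all features were. The medians were -0.26 and -0.48 for members and -0.02 and 0.03 for all features.

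**Figure D4:**
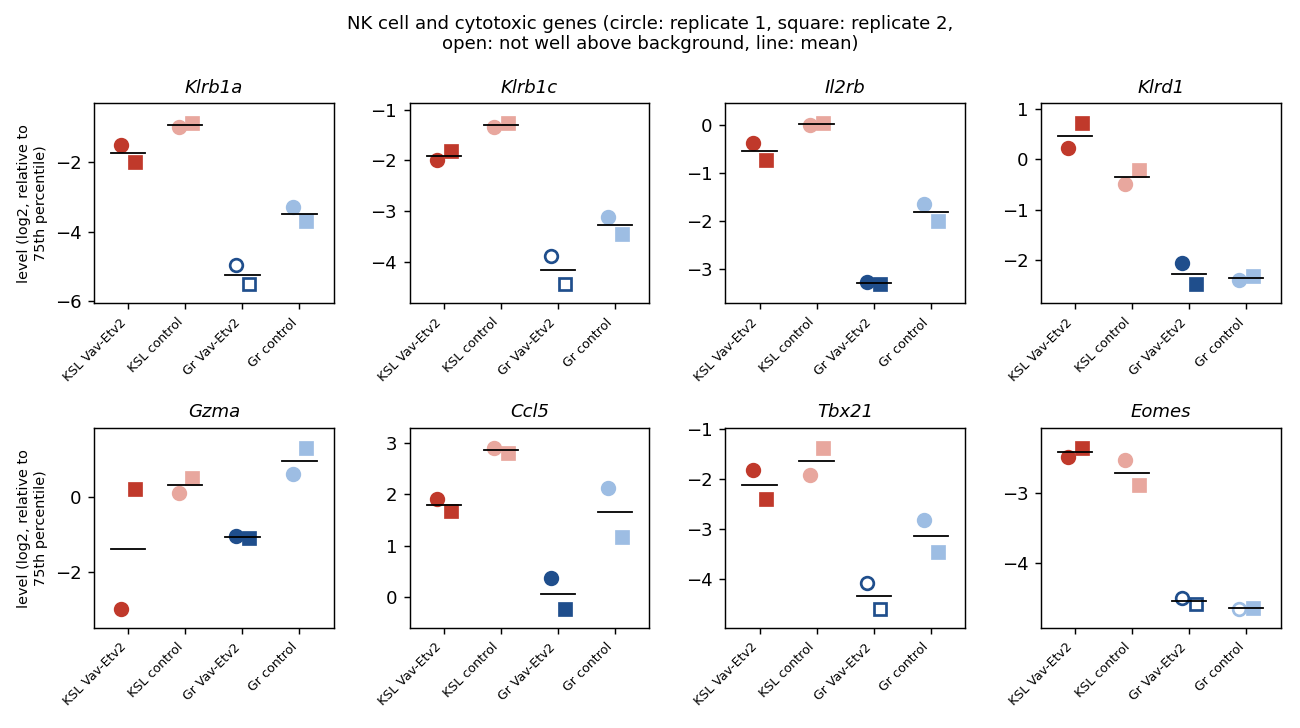
Level (log2, relative to the array's 75th percentile, y axis) of 8 NK cell and cytotoxic genes in the 4 groups (x axis), with circles for replicate 1, squares for replicate 2, open symbols for signals not well above background and lines for the mean of the 2 arrays. For Klrb1a, Klrb1c, Il2rb and Ccl5 both Vav-Etv2 arrays lie below both control arrays in each population, whereas Klrd1 and Eomes do not show this order; no difference between genotypes passed the threshold.

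In KSL cells the largest differences between genotypes, those of Cd3g, Cd3d and Gzma, were smaller without 1 array. Cd3g differed by -3.10 (SE 1.07, limma adjusted p = 0.569) and Cd3d by -2.88 (SE 1.07, limma adjusted p = 0.612), and without KSL Vav-Etv2 1 these were -1.49 and -1.57 (limma adjusted p = 1.00 each). Gzma differed by -1.69 (SE 0.94, limma adjusted p = 0.852), and without the same array by -0.09 (limma adjusted p = 1.00). Both Vav-Etv2 arrays nevertheless lay below both control KSL arrays for Cd3d, Cd3g and Cd3e, as the array values above show for the first 2. The same array stood apart in other markers than the endothelial ones. Mast cell and basophil markers summed to 8.48 on it and to 25.8 on KSL Vav-Etv2 2, against 22.5 and 23.9 in control KSL cells, and 3 eosinophil markers to 0.39 and 16.5, against 5.59 and 5.9. The eosinophil sum of KSL Vav-Etv2 2 thus also lay apart from the controls, on the high side. The 5 genes of the granulocyte sort summed to 468 and 995, against 929 and 901. The 4 erythroid markers summed to 13.4 and 22.7, against 39.8 and 37, so both Vav-Etv2 arrays lay below both controls. The part of these in the differences was not tested. Bcl11b differed by -1.35 (SE 0.49, limma adjusted p = 0.606), with only KSL Vav-Etv2 1 of its pair well above background. With single arrays left out, that difference lay between -1.87 and -0.83. The second Bcl11b probe was well above background on all KSL arrays and differed by -1.33 (SE 0.49, limma adjusted p = 0.622). It stood at -3.99 and -4.10 in Vav-Etv2 and at -2.78 and -2.65 in control KSL cells. Trat1 differed by 1.13 (SE 0.52, limma adjusted p = 0.752) and by 0.85 without KSL Vav-Etv2 1. Ccl5 differed by -1.07 (SE 0.40, limma adjusted p = 0.619), Klrb1a by -0.82 (SE 0.34, limma adjusted p = 0.668) and Klrd1 by 0.82 (SE 0.32, limma adjusted p = 0.634), each without overlap.

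Across both populations 6 members had both Vav-Etv2 arrays below both control arrays in KSL and in Gr cells, where 1.76% of all features did. They were Cd3g, Cd8a, Klrb1c, Klrb1a, Il2rb and Ccl5. Cd8a was not well above background in any Gr array, so its order there lies within background. Its other probe, well above background only on KSL Vav-Etv2 2, overlapped between genotypes in KSL cells. Without the array labelled Gr control 2 there were 10 such members, where 7.84% of all features were, with Cd3d, Cd3e, Cd6 and Klre1 added. The probes of Cd6 disagreed, however. The probe not used for Cd6, well above background on all 8 arrays, was higher in Vav-Etv2 KSL cells. It stood at -2.32 and -2.38 there, against -3.05 and -3.18 in control KSL cells (difference 0.77, SE 0.65). Fyn and Eomes were above in both populations (1.42% of all features), although Eomes in Gr cells lay within background except on the array labelled Gr control 2. Lck was above in KSL (0.33) and below in Gr cells (-0.44), as were 1.3% of all features, and Cd28 was below in KSL (-0.09) and above in Gr cells (0.42), as were 1.73%. None of these genes passed a test between genotypes.

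**Figure D5:**
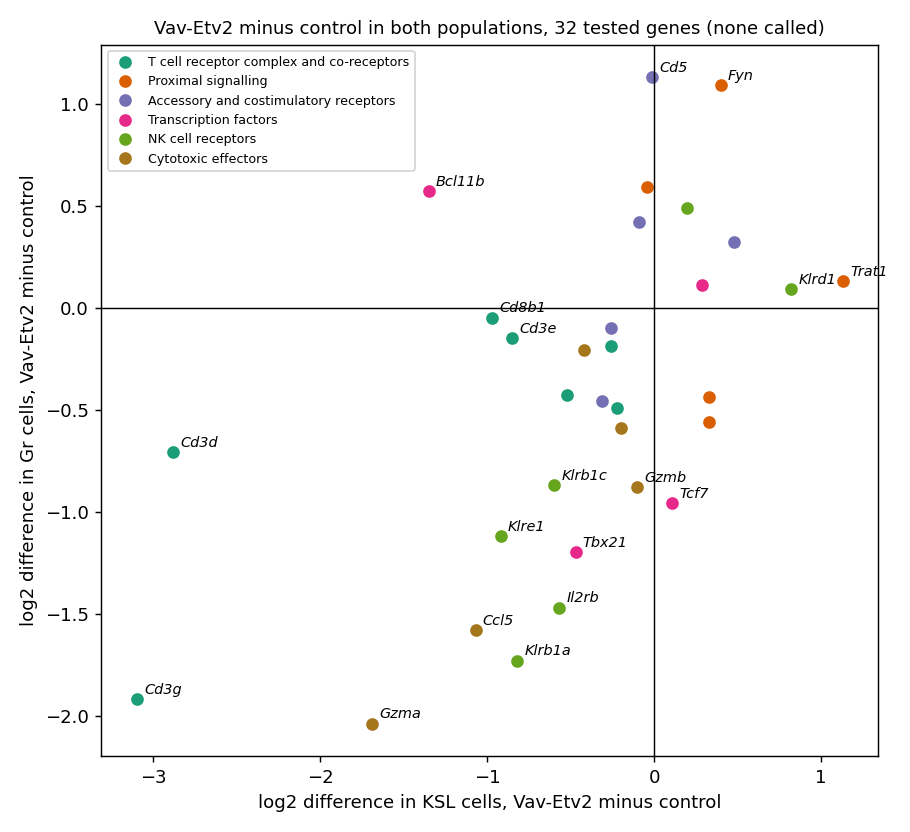
Log2 difference between Vav-Etv2 and control in KSL cells (x axis) and in Gr cells (y axis) for the 32 tested T and NK cell genes, coloured by role, with names for those beyond 0.8 in either. All 8 arrays are used, including the one labelled Gr control 2, and dim signals are plotted as measured. Cd3g and Cd3d lie farthest to the left (-3.10 and -2.88), Gzma lowest (-2.04) and Cd5 highest (1.13), and no point passed the threshold on either axis.

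Markers of other cell types also moved between the groups, and their part in these values was not tested. The summed linear level of 9 B lineage markers was 114 and 149 in Vav-Etv2 KSL cells, against 39.0 and 39.8 in control KSL cells, and 33.8 and 8.09 in Vav-Etv2 Gr cells, against 10.9 and 7.18 in control Gr cells. Mast cell and basophil markers (6 genes) summed to 1.65 and 51.9 in Vav-Etv2 Gr cells and to 5.98 and 83.6 in control Gr cells, so that replicate 2 was high in both genotypes. The 5 NK cell markers, all members here, summed to 1.31 and 0.909 in Vav-Etv2 Gr cells, with 2 of 5 well above background on each array, and to 2.45 and 3.14 in control Gr cells, with 4 and 5. In KSL cells they summed to 1.25 and 2.24 in Vav-Etv2 and to 2.70 and 2.74 in control arrays. Gzma, at 0.61 and 1.32, was the brightest of the 5 in control Gr cells, so the sums there rest largely on it. On KSL Vav-Etv2 1 Gzma stood at -2.99, against 0.22 on KSL Vav-Etv2 2. Of the 5, 4 had a negative difference in each population (49.6% of all features in KSL and 51.5% in Gr cells). Ncr1 differed by 0.20 in KSL and 0.49 in Gr cells. The 7 T cell markers summed to 18.6 and 20.9 in Vav-Etv2 KSL cells, 19.5 and 19.4 in control KSL cells, 11 and 6.53 in Vav-Etv2 Gr cells, and 16.7 and 7.12 in control Gr cells. Lck made up 77% and 77.8% of the sum in Vav-Etv2 KSL cells and 59.5% and 65.8% in control KSL cells. The median level of the 7 was -3.18 and -2.13 in Vav-Etv2 KSL cells, against -0.58 and -0.55 in control KSL cells. Of the 7, all members here as well, 6 had a negative difference in KSL cells (49.6% of all features), and 5 lay lower without overlap (25.4%).

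Other genes of the same pathways were called between the populations in both directions. Of 21 tested genes of T cell receptor signalling outside the members, 7 were higher and 8 lower in KSL than in Gr cells in Vav-Etv2 mice (10.4% and 13.8% of all features). In control mice 5 were higher and 8 lower (16.2% and 18.5% of all features). Grap2, an adaptor downstream of LAT, was higher by 2.86 in Vav-Etv2 (limma adjusted p = 0.0184) and 3.46 in control mice (limma adjusted p = 0.00813). The tyrosine phosphatase gene Ptprc, which encodes the general leukocyte marker CD45, was lower in KSL cells, at -2.81 in Vav-Etv2 (limma adjusted p = 0.00648) and -2.86 in control mice (limma adjusted p = 0.00494).

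Of 18 tested genes of early T lineage development, 12 were higher and 2 lower in KSL cells in Vav-Etv2 mice (10.4% and 13.8% of all features). In control mice 12 were higher and 3 lower (16.2% and 18.5% of all features). Dntt, the terminal transferase of receptor gene rearrangement, was higher by 7.98 in Vav-Etv2 (limma adjusted p = 0.00138) and 8.58 in control mice (limma adjusted p = 0.000913). Cd27, a costimulatory receptor also present on progenitors, was higher by 5.80 (limma adjusted p = 0.000981) and 6.33 (limma adjusted p = 0.000717), and Gata3, a T lineage factor, by 4.26 (limma adjusted p = 0.00382) and 4.59 (limma adjusted p = 0.00233). Notch1, the receptor that starts T cell development, was lower, at -3.10 (limma adjusted p = 0.00274) and -1.88 (limma adjusted p = 0.00843).

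Of 21 tested other NK and cytotoxic genes, 7 were higher and 7 lower in KSL cells in Vav-Etv2 mice (10.4% and 13.8% of all features). In control mice 7 were higher and 6 lower (16.2% and 18.5% of all features). Cd96, an adhesion receptor of T and NK cells, was higher by 6.45 in Vav-Etv2 (limma adjusted p = 0.000981) and 5.72 in control mice (limma adjusted p = 0.000898). The lower ones included Tyrobp, which encodes the adaptor DAP12 that myeloid cells share with NK cells, at -3.78 (limma adjusted p = 0.00512) and -3.81 (limma adjusted p = 0.00389), and Fcgr3, which encodes an Fc receptor found on both, at -3.64 (limma adjusted p = 0.00342) and -4.96 (limma adjusted p = 0.00118). Between Vav-Etv2 and control cells 0 genes of these 3 lists were called in either population. In KSL cells Lef1 differed by 3.11 (limma adjusted p = 0.360), Rag1 by 2.97 (0.450), Plcg1 by 1.92 (0.467), Grap2 by 1.60 (0.625), Ifng by -1.91 (0.309) and Klra1 by -1.74 (0.383), the 2 largest of each list. Ifng, which encodes the interferon of T and NK cells, stood at -3.13 and -2.75 in Vav-Etv2 KSL cells and -1.09 and -0.97 in control KSL cells, and at -3.20 and -4.37 in Vav-Etv2 Gr cells and -2.43 and -3.04 in control Gr cells. Its order of genotypes was thus that of Klrb1a and Il2rb in both populations. In Gr cells the largest differences of the lists were those of Grap2 (2.20), Skap1 (-1.36), Rag1 (1.20), Dntt (0.92), Klra8 (-1.15) and Ifng (-1.05), each with a limma adjusted p of 1.00.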

How the data were processed

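Per the labels, sorted bone marrow cells gave total RNA that was labelled with Cy3 and hybridised 1 sample per array, 8 arrays in all. Spot intensity was extracted by Agilent Feature Extraction, version 10.7.3.1 per the file headers and 10.7 per the submitters' processing notes. The processed signal, a deposited intensity after background subtraction, was used here. Other deposited values are marks of 0 or 1 for control, outlier, saturated and well-above-background spots. The deposited value table holds log2 values, which lay within 0.01 of levels centred on each probe's median within its cell type for 99.7% of entries; its column medians ran between -0.26 and 0.29, and it served only as an alternative.

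Outlier spots were removed, repeat spots of a probe averaged, and log2 signals taken relative to each array's 75th percentile. That percentile was a signal between 136 and 300, the share of probes well above background ran between 47.7% and 55.5%, and 0 spots were saturated. Probes were kept if well above background on at least 2 arrays, and the brightest kept probe over all 8 arrays stood for its gene (23226 features). Limma 3.58.1 (lmFit, eBayes) in R 4.3.3 fitted 4 group means with 4 residual and 2.77 prior degrees of freedom, and calls needed a p under 0.05 after Benjamini-Hochberg adjustment over all features. SE is the moderated standard error. The fit was tested on simulated data. Probe coordinates are those of the files (mm9), and promoter coordinates are GRCm38.p6.

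Values are given in full for members called in any comparison and for the 5 largest differences of each among genes well above background on both arrays of a compared group. Genes outside the members that are named were called, or were the 2 largest differences of their list where none was. The members, lists and role groups were chosen with earlier results of these data known. No label says that replicates came from separate animals, and the p-values measure just the spread among these arrays. In KSL cells that spread may be technical. The replicates of each Gr group differ in Xist and Ddx3y, so they are not repeats of the same RNA. The number of arrays limits precision. Alternatives tried were normexp background correction, median and quantile scaling, other filters, a floor, each probe by itself, a replicate block, an intensity trend, the value table, fits within a cell type, and leaving out each array.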

Additional observations from a re-analysis of the deposited data

How the results depend on the processing

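The count of members called between Vav-Etv2 and control cells was 0 in KSL cells, in Gr cells and for the difference of the effects under every alternative run. Between the populations, normexp background correction, which compresses dim signals, called 12 members in Vav-Etv2 mice, and requiring signals well above background on all 8 arrays, which left 15 members to test, called 8 in Vav-Etv2 and 8 in control mice. Leaving out 1 array at a time gave counts of 11 to 19 in Vav-Etv2 mice (11 without KSL Vav-Etv2 1) and 10 to 18 in control mice (10 without KSL control 2). The other alternatives gave 17 to 20 in Vav-Etv2 and 12 to 19 in control mice. The shares of all features called under the alternatives are not given here. Whether the changes in count are particular to the members was not tested. Under normexp the dim members Cd8a, Trat1, Bcl11b, Tbx21, Eomes and Klrb1c lost their call in both genotypes, so control mice were affected as well. The difference of the KSL and Gr effects of Cd3g, -1.18, lay between -2.79 and 0.42 when 1 array was left out, and turned to 0.42 without KSL Vav-Etv2 1.

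The replicate numbers are shared between groups, but no label says what they pair. The correlation of replicate differences was 0.66 between the Gr groups and 0.07 between the KSL groups. With the replicate block the counts were 0, 0 and 0 for the genotype tests, 19 in Vav-Etv2 mice between populations and 18 in control mice; with the block within each cell type they were 0, 0, 0, 20 and 19. Members not well above background in Gr cells have only a bound there.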

Other observations

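The median absolute difference between the replicates of a group over the 32 tested members was 0.38 in Vav-Etv2 KSL cells and 0.18 in control KSL cells, and 0.65 in Vav-Etv2 Gr cells and 0.87 in control Gr cells. Over all features it was 0.31, 0.19, 0.60 and 0.68 in the same order of groups. The member with the widest gap was Cd3g in Vav-Etv2 KSL cells (3.22), Cd8b1 in control KSL cells (1.05), Cd6 in Vav-Etv2 Gr cells (2.03) and Cd3d in control Gr cells (2.28). Cd6, a receptor related to Cd5, stood at 1.31 and -0.72 in Vav-Etv2 Gr cells and at 1.79 and -0.27 in control Gr cells, so replicate 1 was the higher array in both.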
